A study of Rattus norvegicus with 48 samples.

Results

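Rat livers that went through ischemia with both preconditioning and postconditioning (the IPC+IPO group, 10 animals) were set against livers of animals that had a laparotomy only (sham, 8 animals). Group membership was taken from the sample labels, so the comparison covers 18 of the 48 arrays of the series, each from a separate male Wistar rat whose age the labels do not give. Each IPC+IPO liver was first preconditioned, by a 10 min occlusion that was released for 10 min. Total ischemia of the liver for 30 min came next. Postconditioning followed as 3 cycles in which flow was let in for 30 sec and stopped again for 30 sec, and the right lobe was biopsied after 30 min of reperfusion. The labels do not say how long after laparotomy the sham livers were biopsied. Time under surgery therefore cannot be told apart from ischemia and conditioning. The other 3 ischemic groups of 10 animals had the 30 min of ischemia alone (IRI), with preconditioning (IPC) or with postconditioning (IPO). Expression is given on the log2 scale as the authors deposited it, for 14506 genes, so a difference of 1 is a 2-fold change. The samples are whole biopsies, in which fewer cells of a type and less RNA per cell cannot be told apart.

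When blood returns to an ischemic organ, stress-activated and mitogen-activated protein kinases switch on immediate-early genes within minutes, before any new protein has to be made. These genes code for transcription factors such as AP-1 (Jun, Fos and Atf proteins), Egr1 and Nr4a1, for proteins that remove short-lived mRNAs, and for phosphatases and SOCS proteins that shut the same signals off again. In conditioning, brief cycles of ischemia are applied before or just after a long one, with the aim of limiting the injury that reperfusion adds.

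Immediate-early genes were the most frequently called of the gene groups examined in IPC+IPO liver. The groups were put together with earlier results of these data known, so this ranking is descriptive only. Of 40 measured, 17 were higher than in sham and none was lower at an adjusted p under 0.05 (42.5% higher, against 3.05% of all genes). Atf3, a stress-induced transcription factor, rose 6.33-fold, Zfp36, which marks AU-rich mRNAs for decay, 4.34-fold, the small GTPase gene Rhob 4.15-fold, Jun 3.69-fold, Junb 3.56-fold and Egr1 3.37-fold. Outside that list, the growth arrest and stress genes Gadd45a and Gadd45g rose 4.31-fold and 3.33-fold, and Tia1, which codes for an RNA-binding protein of stress granules, had the smallest adjusted p of all genes and fell to 0.678 of its sham level (adjusted p = 0.000164). In all, limma called 525 genes (3.62% of 14506), 443 of them higher and 82 lower (0.565%), and 3419 genes had an unadjusted p under 0.05. At 2-fold or more, 49 genes were higher and none was lower. In no gene (0%) did all IPC+IPO animals lie above or below all sham animals.

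How many genes passed depended on single animals, and which animals these were is described here because it touches every count that follows. Of the IPC+IPO livers, animal 37 was close to sham for most of the genes that rose. Sham animals 43 and 48 were the highest sham animals for most of them. The count of called genes fell to 49 without sham animal 46 and rose to 2432 without sham animal 43 and 1788 without 48, with 68 without sham animal 47, 71 without 41, 81 without 42, 106 without 45 and 169 without 44. Among the IPC+IPO animals it was 484 without animal 34, 1826 without 37, 2357 without 38, and between 129 and 217 without 31, 32, 33, 35, 36, 39 or 40. Called in each of these 18 fits were 41 genes, 36 of them higher and 5 lower, and 8 of the 36 were immediate-early genes (Atf3, Zfp36, Rhob, Jun, Junb, Jund, Egr1 and Nr4a1). For the called genes named below, the adjusted p in the least favourable of these fits was at most 0.162. Of the 92 called genes followed singly, 25 kept the call in all 18 fits, 18 lost it in 1 to 8 of them, and 49 lost it in 9 or more. None lost it without animal 37 or 38 or sham animal 43 or 48. In a fit of only the 18 IPC+IPO and sham arrays, 81 of the 92 were not called. Among them were Jun, Egr1, Dusp1, Fgf21 and Ftl1, which had kept the call in all 18 fits. Where a single animal is named below as ending a call, leaving out others could end it too.

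The arrays also differed in spread, meaning here the SD of 1 array's log2 values across all genes. Spread was 1.86 ± 0.153 (SD, n = 10) in IPC+IPO and 1.72 ± 0.134 (SD, n = 8) in sham, a difference of 0.134 (two-sided exact permutation p = 0.0613). By level of expression, the median difference between the groups was 0.29 in the 3627 brightest genes, where 356 of the 443 higher calls lay, and -0.07 in the 3626 dimmest. Over all genes the median difference was 0.01. With array spread added to the fit as a covariate, limma called 34 genes (0.234%), 19 higher (0.131%) and 15 lower (0.103%), and 15 of these were among the 525. They included Tia1, Apold1, Junb, Gadd45g, Zfp36, Gstk1, Gadd45a, Nr4a1, Rhob, Jund, Ftl1 and Spry4. Animals 38 (1.498) and 37 (1.669) had the narrowest spread of the IPC+IPO arrays, and sham animals 43 (1.961) and 48 (1.905) the widest of the sham arrays. The part of array spread in the calls was not tested beyond these values.

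**Figure D1:**
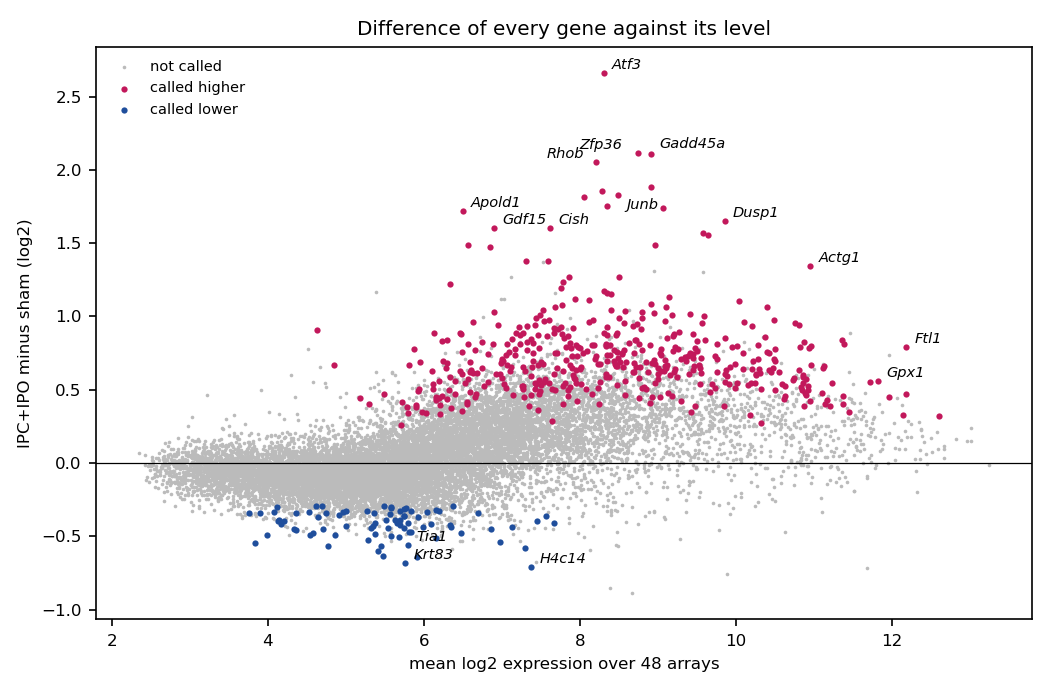
Difference between IPC+IPO and sham (log2, vertical axis) of each of the 14506 genes against its mean log2 expression over the 48 arrays (horizontal axis); coloured points are the 443 genes called higher and the 82 called lower by limma at an adjusted p under 0.05. Most higher calls lie among the brighter genes, Atf3 has the largest difference (2.66), and no called gene is lower by as much as 1.

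Of the transcription factors, Atf3 (probe set 10770710) showed the largest difference of all genes. Its level ran from 6.26 to 10.74 with a median of 8.97 in IPC+IPO, and from 5.63 to 7.83 with a median of 5.97 in sham. All IPC+IPO animals except number 37 lay above every sham animal, and sham animal 48 was the highest of its group. The difference was 2.66 ± 0.57 (SE; limma adjusted p = 0.0101), and 2.34 ± 0.60 with array spread as a covariate (adjusted p = 0.0621). Junb (probe set 10806585), an AP-1 subunit, lay between 7.07 and 9.82 with a median of 9.08, against 6.31 to 8.04 with a median of 6.94 in sham. Here too animal 37 alone fell within the sham range. The difference in Junb was 1.83 ± 0.32 (adjusted p = 0.00281), and 1.55 ± 0.33 with the covariate (adjusted p = 0.0304).

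Of the other AP-1 genes, Jun, Jund and Fos rose, while Fosl1 (-0.07, adjusted p = 0.771) and Fosl2 (0.06, adjusted p = 0.817) were not called. Jun (probe set 10878112) lay between 7.59 and 10.53 (median 9.52) in IPC+IPO and between 6.32 and 8.83 (median 7.62) in sham, with animals 34 and 37 within the sham range, and differed by 1.88 ± 0.38 (adjusted p = 0.00655). Jund rose by 1.19 ± 0.23 (adjusted p = 0.00487) and kept its call with the covariate (0.94 ± 0.22, adjusted p = 0.0463). Fos, the partner of the Jun proteins, had a median of 7.93 against 6.50 in sham, and 8 of 10 animals were above all sham animals. It rose by 1.38 ± 0.38 (adjusted p = 0.0355), a call that was lost without any 1 of 12 animals, among them sham animals 41 and 46.

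Egr1 (probe set 10800919), a zinc finger factor switched on by mitogen-activated kinases, lay between 7.38 and 10.03 (median 8.76) in IPC+IPO and between 6.18 and 8.19 (median 6.94) in sham. Animals 34, 37 and 39 overlapped with sham, whose highest value was that of animal 48. Egr1 rose by 1.75 ± 0.37 (adjusted p = 0.01; 1.64 ± 0.40 and adjusted p = 0.0526 with the covariate). The orphan nuclear receptor gene Nr4a1 (probe set 10899387) lay between 5.79 and 8.13 (median 7.04), against 4.89 to 6.14 (median 5.79) in sham, with animal 37 alone in the sham range. It rose by 1.49 ± 0.28 (adjusted p = 0.0045; 1.27 ± 0.29 and adjusted p = 0.0377 with the covariate). Smaller rises were called for Ier2 (1.15 ± 0.28), the Kruppel-like factor genes Klf6 (1.03 ± 0.27) and Klf2 (0.75 ± 0.21), the repressor genes Hes1 (0.63 ± 0.17) and Nfil3 (0.92 ± 0.25), Mafk (0.46 ± 0.13), the kinase gene Plk2 (0.97 ± 0.28) and the matricellular protein gene Ccn1 (1.12 ± 0.29). Each of these 8 calls was lost without sham animal 41, and each without 46 also.

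Of the other 23 immediate-early genes measured, none passed, and 34 of all 40 differences were above 0. The median of the list was 0.60 (0.46 with the covariate). The count of 17 called higher became 5 with the covariate (0.131% of all genes), 6 with only these 18 arrays in the fit (0.0758%), 9 after renewed quantile normalization (1.32%) and 0 without the 14 arrays of lowest spread (0%), which leaves 2 sham arrays. These are animals 43 and 48, the highest sham animals for most of the genes that rose. Values without the 14 arrays, here and below, therefore cannot tell whether a difference holds against the other sham animals. With array weights 27 were higher and 4 lower (34.5% and 27.6% of all genes). Without single animals the median of the list stayed between 0.54 and 0.68, while the number of members called higher ran from 8 to 24. It was 8 without IPC+IPO animal 35, or sham animal 41, 42, 46 or 47, and 24 without IPC+IPO animal 37. The mean level of the 40 genes ran from 6.65 to 7.88 over IPC+IPO animals and from 6.31 to 6.86 over sham animals, with IPC+IPO animals 37 and 34 inside the sham range.

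**Figure D2:**
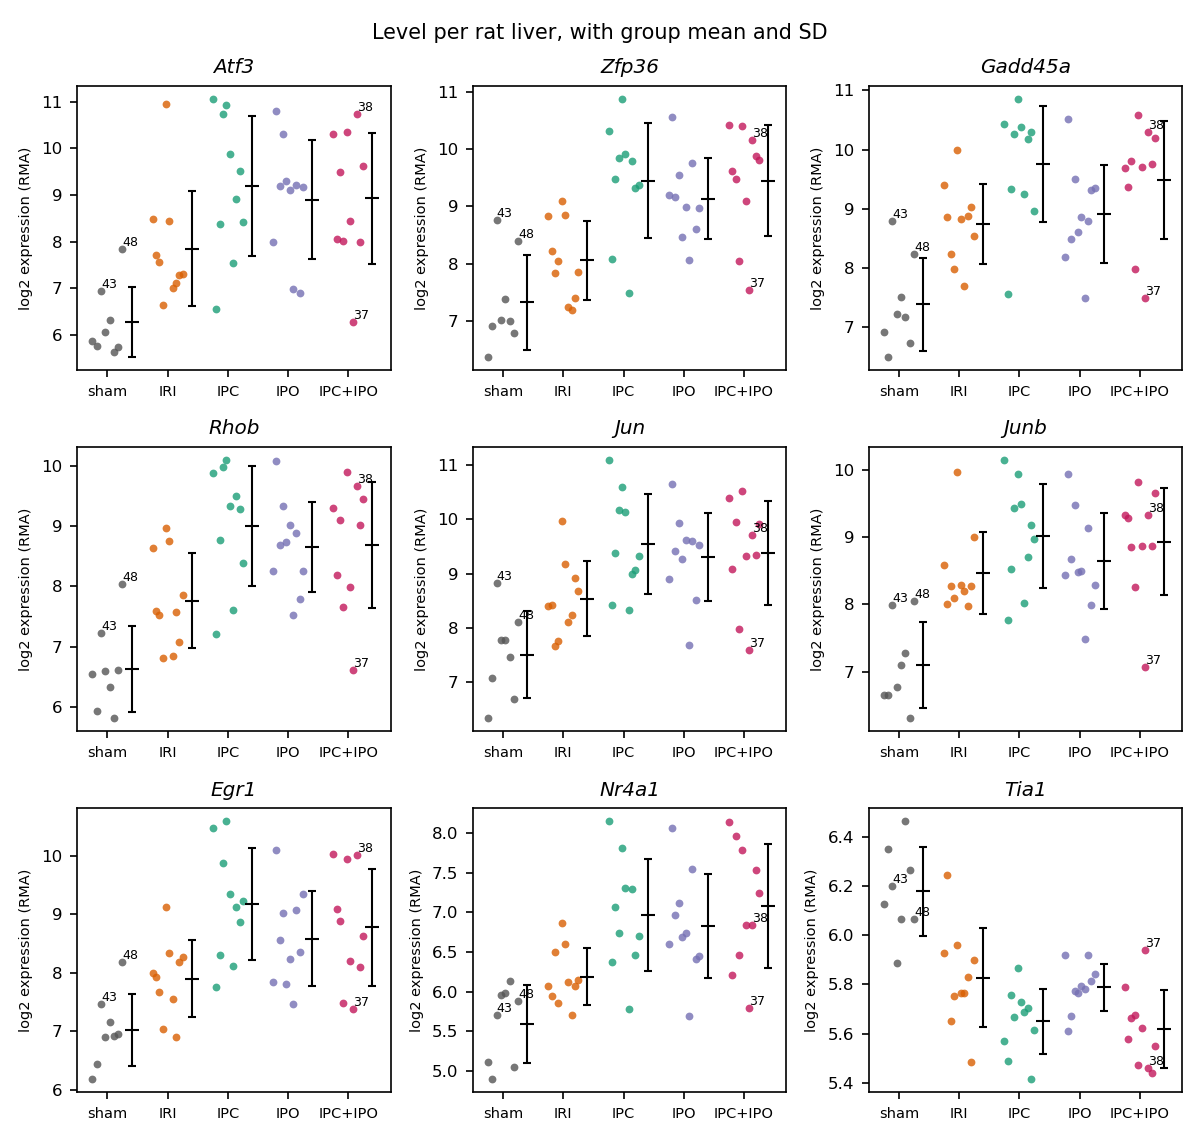
Level of 9 genes (log2 expression, vertical axis) in each rat of the 5 groups; each point is 1 animal, and the bar to the right of a group is its mean ± SD (n = 8 in sham, 10 in the other groups). Numbers mark IPC+IPO animals 37 and 38 and sham animals 43 and 48: animal 37 lies in the sham range in all 9 genes, and Tia1 runs opposite to the others.

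**Figure D3:**
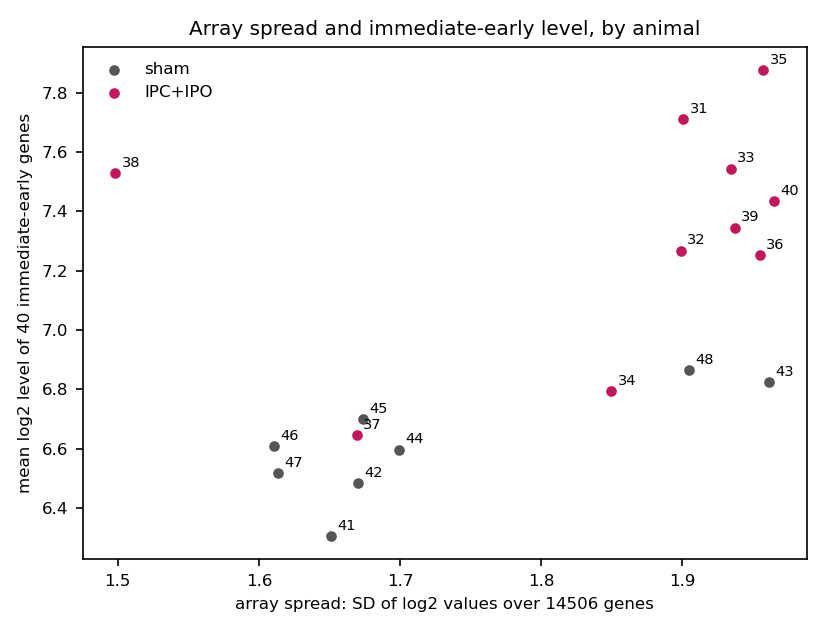
Mean log2 level of the 40 immediate-early genes (vertical axis) against array spread, the SD of 1 array's log2 values over 14506 genes (horizontal axis), for the 8 sham and 10 IPC+IPO animals, numbered as in the labels. IPC+IPO animals 37 and 38, of narrow spread, lie at 6.65 and 7.53 and the other 8 between 6.79 and 7.88; sham animals 43 and 48, of wide spread, lie at 6.82 and 6.86 and the other 6 between 6.31 and 6.70.

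The sequences before the start sites of 4 of these genes, and of the STAT5 target Cish, are shown because they hold letters that known regulators of immediate-early and cytokine-response genes recognise. The windows are the 250 bases before the annotated start from RefSeq (build GRCr8), written 5′ to 3′ along the gene's strand. Capitals mark the matches: the CArG box, to which serum response factor binds, in Egr1 (at -105 to -96 and -83 to -74 from the start) and Zfp36 (-32 to -23), the CRE (TGACGTCA), to which CREB and ATF proteins bind, in Ier2 (-66 to -59) and Jund (-221 to -214), and the STAT site (TTCNNNGAA) in Ier2 (-224 to -216) and, at 4 places, in Cish.
Egr1 (chr18:26736828-26737077, plus strand): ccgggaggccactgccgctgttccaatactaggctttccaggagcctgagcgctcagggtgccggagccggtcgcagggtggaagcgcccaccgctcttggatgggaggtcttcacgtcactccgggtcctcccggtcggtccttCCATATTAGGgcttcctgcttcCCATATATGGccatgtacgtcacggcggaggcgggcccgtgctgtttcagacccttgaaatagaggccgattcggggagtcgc
Zfp36 (chr1:92799109-92799358, minus strand): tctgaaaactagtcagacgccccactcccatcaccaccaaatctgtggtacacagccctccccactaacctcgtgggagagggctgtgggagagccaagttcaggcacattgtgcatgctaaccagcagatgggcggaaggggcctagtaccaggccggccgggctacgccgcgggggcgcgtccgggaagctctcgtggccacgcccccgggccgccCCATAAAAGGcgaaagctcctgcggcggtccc
Ier2 (chr19:40399123-40399372, plus strand): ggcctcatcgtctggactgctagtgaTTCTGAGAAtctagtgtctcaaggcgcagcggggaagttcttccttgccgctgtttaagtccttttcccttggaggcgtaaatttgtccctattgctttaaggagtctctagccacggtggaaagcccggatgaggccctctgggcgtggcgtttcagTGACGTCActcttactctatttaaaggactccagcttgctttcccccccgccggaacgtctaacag
Jund (chr16:18769772-18770021, minus strand): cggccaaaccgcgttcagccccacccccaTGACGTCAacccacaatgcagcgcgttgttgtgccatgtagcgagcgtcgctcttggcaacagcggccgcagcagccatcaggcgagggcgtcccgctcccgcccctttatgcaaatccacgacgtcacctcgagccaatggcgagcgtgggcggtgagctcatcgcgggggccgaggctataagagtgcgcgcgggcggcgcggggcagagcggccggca
Cish (chr8:116850719-116850968, plus strand): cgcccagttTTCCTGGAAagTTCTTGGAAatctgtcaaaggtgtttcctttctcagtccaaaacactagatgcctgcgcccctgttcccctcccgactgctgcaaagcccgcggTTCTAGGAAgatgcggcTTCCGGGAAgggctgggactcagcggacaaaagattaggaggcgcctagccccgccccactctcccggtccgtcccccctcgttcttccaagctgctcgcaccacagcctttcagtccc

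Both strands were searched for these letters, and the CRE, the AP-1 site (TGANTCA), the CArG box and the STAT site were counted in all 27457 promoter windows as well. A CRE was present in 3 of the 13 immediate-early genes called higher that have a window (Ier2, Jund and Plk2), against 1.70% of all windows and 4.51% of the 377 windows of genes called higher. A CArG box was present in 3 of the 13 (Egr1, Klf6 and Zfp36), against 412 of the 27457 windows and 2.65% of those of genes called higher. Of all 29 measured immediate-early genes with a window, called or not, 4 held a CRE and 5 a CArG box. The added genes, Maff for the CRE and Egr2 and Srf for the CArG box, were not called. Whether the matches go with the call or only with membership of the list was not tested. The AP-1 site was in none of the 13 and in 6.36% of all windows, and the STAT site was in 1 (Ier2) and in 7.52%. These are matches of letters in a fixed window and say nothing of binding in these livers.

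Of 15 phosphatases and feedback inhibitors that switch mitogen-activated kinase signals off, 4 were called higher (26.7%) and none lower, with a median of 0.28; 1 was called higher with the covariate. The counts of this and the following lists are to be read against the 3.05% of all genes called higher and the 0.565% called lower, and all genes had a median of 0.01. Higher calls were more frequent in bright genes: of the 3627 brightest, 356 were called higher, with a median of 0.29. For lists of bright genes, such as the ribosomal protein genes, that share and median are the nearer comparison. Dusp1, the phosphatase of stress-activated kinases, lay between 8.69 and 11.43 (median 10.67) in IPC+IPO and between 7.58 and 9.91 (median 8.65) in sham. All but animals 34 and 37 exceeded every sham animal. The difference was 1.65 ± 0.33 (limma adjusted p = 0.00655), and 1.24 ± 0.32 with the covariate (adjusted p = 0.0617). Dusp6, which acts on ERK, rose by 1.17 ± 0.25 (adjusted p = 0.0101), with animals 34, 37, 38 and 39 in the sham range. Dusp5 (0.89 ± 0.25, adjusted p = 0.0397) and the Ras pathway inhibitor gene Spry4 (0.45 ± 0.13, adjusted p = 0.042) were each called in only 5 of the 18 fits without 1 animal. Spry4 stood at 0.63 ± 0.12 with the covariate, where it was called (adjusted p = 0.00874).

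Of 15 SOCS and STAT feedback genes, 3 were higher (20%) and none lower, with a median of 0.24. Socs3, the inhibitor of gp130 signalling, lay between 5.85 and 7.32 (median 6.63) in IPC+IPO and between 5.52 and 6.14 (median 5.75) in sham, and rose by 0.89 ± 0.20 (adjusted p = 0.0154). Animals 34 and 37 were within the sham range. Cish (probe set 10912908), whose promoter is shown above, lay between 5.86 and 8.86 (median 8.44), against 5.53 to 8.13 (median 6.31). Its lowest IPC+IPO value was that of animal 34, and its highest sham value, that of animal 43, overlapped with 4 IPC+IPO animals. Cish rose by 1.60 ± 0.39 (adjusted p = 0.022), a call lost without sham animal 41, 42, 46 or 47, and Socs5 by 0.46 ± 0.13 (adjusted p = 0.0424; lost in 14 of the 18 fits without 1 animal). Of 14 NF-kB regulators, Nfkbia, the inhibitor that NF-kB itself induces, alone was called; it rose by 0.99 ± 0.27 (adjusted p = 0.0341), with animals 34, 36 and 37 in the sham range, and lost the call without any 1 of 12 animals, sham animal 41 among them.

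Among 32 cytokines, chemokines and adhesion molecules, 4 were higher and none lower, with a median of 0.21. The neutrophil chemokine gene Cxcl1 varied most between animals: it ran from 6.76 to 10.44 (median 8.27) in IPC+IPO and from 6.22 to 8.08 (median 6.53) in sham. Animals 31, 32, 35 and 38 were at 9.99 or above, and animals 36, 37, 39 and 40 were within the sham range. Cxcl1 rose by 1.85 ± 0.55 (adjusted p = 0.0443). The interleukin-1 receptor antagonist gene Il1rn (0.78 ± 0.20, adjusted p = 0.0256), the interleukin-1 alpha gene Il1a (0.98 ± 0.29, adjusted p = 0.0427) and the alarmin gene Il33 (0.82 ± 0.24, adjusted p = 0.0424) also rose. None of these 4 calls held without sham animal 41, 42, 44, 46 or 47, nor with the covariate, where their differences were 1.78, 0.61, 0.59 and 0.50.

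Genes of growth arrest and of mRNA turnover were among those called in every fit without 1 animal, namely Gadd45a, Gadd45g, Zfp36 and Tia1. Gadd45a (probe set 10862867), induced by DNA damage and other stress, lay between 7.48 and 10.58 (median 9.73) in IPC+IPO and between 6.48 and 8.80 (median 7.19) in sham, and differed by 2.11 ± 0.39 (adjusted p = 0.00358; 1.71 ± 0.38 and adjusted p = 0.0351 with the covariate). Gadd45g (probe set 10797527) ran from 7.85 to 10.60 (median 9.68), against 7.16 to 9.18 (median 7.51), and differed by 1.74 ± 0.31 (adjusted p = 0.00281). In both genes animals 34 and 37 lay within the sham range, the top of which was set by sham animal 43. Of the 17 Gadd45 and p53 target genes, Phlda3 was the only other one called (1.06 ± 0.32, adjusted p = 0.046; lost in 14 of the 18 fits without 1 animal), none was lower, and the list's median was 0.24.

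Of 11 regulators of mRNA decay and stability, 2 were higher and 1 was lower. Zfp36 (probe set 10720215) lay between 7.54 and 10.42 (median 9.72) in IPC+IPO and between 6.37 and 8.76 (median 7.01) in sham. Animals 34 and 37 overlapped with sham animals 43 and 48. Zfp36 rose by 2.12 ± 0.38 (adjusted p = 0.00281; 1.64 ± 0.36 and adjusted p = 0.035 with the covariate), and its relative Zfp36l1 by 1.02 ± 0.26 (adjusted p = 0.0256), with 9 of 10 animals above all sham animals; the call of Zfp36l1 was lost without animal 31 or 35 or sham animal 41, 42, 46 or 47.

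Tia1 (probe set 10856971), which stalls translation of bound mRNAs, lay between 5.44 and 5.94 (median 5.60) in IPC+IPO and between 5.89 and 6.47 (median 6.17) in sham. All IPC+IPO animals but number 37 were below every sham animal. The difference was -0.56 ± 0.08 (adjusted p = 0.000164), and also -0.56 ± 0.08 with the covariate (adjusted p = 0.000391). Without single animals it stayed between -0.60 and -0.52, with adjusted p values of at most 0.00146.

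Of the called genes listed for the endoplasmic reticulum and integrated stress response, Fgf21 and Ppp1r15a rose most. Atf3 was counted with the immediate-early genes and not in this list. Of 24 genes of endoplasmic reticulum and integrated stress, 3 were higher and 1 was lower, with a median of 0.13. Ppp1r15a, which codes for the subunit that reverses the block of translation, lay between 5.43 and 8.43 (median 7.42) in IPC+IPO and between 5.16 and 6.54 (median 5.60) in sham, and rose by 1.47 ± 0.31 (adjusted p = 0.00907), with animals 34 and 37 in the sham range. Fgf21, a hormone that liver releases under metabolic and mitochondrial stress, lay between 6.58 and 10.03 (median 8.69), against 6.21 to 7.93 (median 6.52), and rose by 1.81 ± 0.36 (adjusted p = 0.00641). Animals 32, 34 and 37 overlapped with sham. Atf4, the transcription factor of this response, rose by 0.51 ± 0.15 (adjusted p = 0.0397), a call held in 5 of the 18 fits without 1 animal, while Phgdh, the first enzyme of serine synthesis, fell by 0.47 ± 0.11 (adjusted p = 0.0159; lost without sham animal 42 or 47). The stress hormone gene Gdf15 ran from 5.95 to 8.87 (median 7.01), against 5.36 to 6.19 in sham, and rose by 1.60 ± 0.42 (adjusted p = 0.0309), with animals 32, 34 and 37 within the sham range; the call was lost in 10 of the 18 fits without 1 animal. Of 22 heat shock chaperones only Hspb8 was called (4.55%, close to the share over all genes; 0.66 ± 0.19, adjusted p = 0.039), with a list median of 0.21; its call was lost in 14 of the 18 fits without 1 animal.

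Of 25 antioxidant, glutathione and iron genes, 6 were higher (24%) and none lower, with a median of 0.32 (0.10 with the covariate, where 1 was called), beside a median of 0.29 over the 3627 brightest genes. The ferritin light chain gene Ftl1 lay between 11.45 and 12.65 (median 12.46) in IPC+IPO and between 10.88 and 12.45 (median 11.35) in sham, with 4 animals in the sham range. It rose by 0.79 ± 0.15 (adjusted p = 0.00525) and by 0.50 ± 0.11 with the covariate (adjusted p = 0.035). The ferritin heavy chain gene Fth1 rose by 0.32 ± 0.08 (adjusted p = 0.0231), Gpx1, which reduces peroxides, by 0.56 ± 0.16 (adjusted p = 0.0397), Osgin1 by 1.05 ± 0.29 (adjusted p = 0.0369), and Hamp, the iron hormone hepcidin, by 0.81 ± 0.21 (adjusted p = 0.0285). The heme oxygenase gene Hmox1 rose by 0.77 ± 0.21 (adjusted p = 0.033), with 2 of 10 animals above all sham animals. Apart from Ftl1 these calls were lost without sham animal 41 or 42. Gstk1, a mitochondrial and peroxisomal glutathione transferase outside the list, rose by 0.93 ± 0.17 (adjusted p = 0.00281), and by 0.59 ± 0.11 with the covariate (adjusted p = 0.0101). Of 29 hypoxia-inducible genes, Hmox1 and Angptl4 were called (6.90%), with a list median of 0.08, and of 8 metallothionein and zinc transporter genes none was called (median 0.23).

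Some genes of fat and carbohydrate use rose as well. Of 28 genes of fatty acid oxidation, ketogenesis and lipid droplets, 6 were higher and none lower (median 0.26; 0.06 with the covariate). Pdk4, which blocks the entry of pyruvate into the citric acid cycle, lay between 7.32 and 10.40 (median 9.61) in IPC+IPO and between 7.28 and 8.28 (median 7.94) in sham. Animal 37 alone was in the sham range. Pdk4 rose by 1.49 ± 0.35 (adjusted p = 0.0184) and lost its call without sham animal 41 or 42. Angptl4, an inhibitor of lipoprotein lipase, rose by 1.11 ± 0.31 (adjusted p = 0.0369), and the lipid droplet gene Cidec by 0.87 ± 0.20 (adjusted p = 0.0154). Of these, Cidec turned to -0.06 without the 14 arrays of lowest spread. The carnitine carrier gene Slc25a20 (0.69 ± 0.17, adjusted p = 0.022) and Hadh, an enzyme of beta-oxidation (0.43 ± 0.13, adjusted p = 0.042), were higher in the mean, although no Slc25a20 value exceeded the highest sham animal. Cidec, Slc25a20, Hadh and Angptl4 each lost the call without sham animal 41, and each without 46; for Hadh and Angptl4 that held in 13 of the 18 fits.

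Of 22 genes of gluconeogenesis, glycogen and insulin response, 3 were higher and none lower (median 0.35; 0.05 with the covariate). Igfbp1, a binding protein of insulin-like growth factors that insulin represses, lay between 8.60 and 11.10 (median 10.25) in IPC+IPO and between 6.91 and 9.32 (median 8.80) in sham, with animals 34 and 37 overlapping, and rose by 1.57 ± 0.39 (adjusted p = 0.022). It lost the call without sham animal 41, 42, 46 or 47. The cyclic AMP response gene Crem rose by 0.89 ± 0.18 (adjusted p = 0.0074), and the gluconeogenic enzyme gene Fbp1 by 0.42 ± 0.13 (adjusted p = 0.0483; adjusted p = 0.134 in the least favourable fit without 1 animal). Among 22 genes induced by glucocorticoids, Dusp1, Igfbp1, Nfkbia and Angptl4 were called, with a median of 0.37.

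Cholesterol and fatty acid synthesis had the highest median after the immediate-early genes, 0.46, with 26 of 27 differences above 0, and 0.18 with the covariate; 3 genes were higher and none lower. Insig1, which retains the sterol sensor in the endoplasmic reticulum, rose by 0.94 ± 0.24 (adjusted p = 0.0259), and the pathway enzymes Pmvk and Tm7sf2 by 0.80 ± 0.21 (adjusted p = 0.031) and 0.96 ± 0.27 (adjusted p = 0.0369). Each lost its call without sham animal 41, and Tm7sf2 stood at -0.01 without the 14 arrays of lowest spread. Of 18 genes of the urea cycle and amino acid catabolism, Hpd (0.47 ± 0.11, adjusted p = 0.0154), Agxt (0.76 ± 0.18, adjusted p = 0.0182) and Gls2 (0.62 ± 0.17, adjusted p = 0.0355) rose, with a median of 0.38 (0.11 with the covariate). All 3 lost the call without sham animal 41 or 46. Of 40 xenobiotic enzymes 1 was called (2.50%, below the share over all genes; Cyp2d3, 0.52 ± 0.15, adjusted p = 0.0397; lost in 13 of the 18 fits without 1 animal; median 0.11), and of 19 bile acid genes none (median 0.18).

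Of 20 actin and serum response factor target genes, 4 were higher and none lower (median 0.19). Actg1, cytoplasmic gamma actin, lay between 9.34 and 11.97 (median 11.40) in IPC+IPO and between 8.97 and 10.95 (median 9.57) in sham, with animals 34, 37 and 38 overlapping, and rose by 1.35 ± 0.30 (adjusted p = 0.0121; 0.85 ± 0.25 and adjusted p = 0.095 with the covariate). Rhob (probe set 10889177), a GTPase of actin and vesicle traffic, ran from 6.62 to 9.90 (median 9.06), against 5.81 to 8.03 (median 6.57). Animals 34, 36 and 37 lay within the sham range. Rhob rose by 2.05 ± 0.39 (adjusted p = 0.00487; 1.64 ± 0.39 and adjusted p = 0.0455 with the covariate), and the tubulin gene Tuba1c by 0.53 ± 0.16 (adjusted p = 0.0493; lost in 14 of the 18 fits without 1 animal). The membrane rupture gene Ninj1, alone of 25 BCL2 family and lytic death genes, rose by 0.91 ± 0.19 (adjusted p = 0.00907), with 5 of 10 animals above all sham animals.

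Of 69 cytosolic ribosomal protein genes, 7 were higher (10.1%) and none lower, with a median of 0.08; they were Rpl6 (0.80 ± 0.20), Rplp0 (0.58 ± 0.17), Rpl15 (0.56 ± 0.15), Rps29 (0.55 ± 0.14), Rps4x (0.55 ± 0.16), Rpl34 (0.51 ± 0.15) and Rplp1 (0.46 ± 0.12). All 7 lost their calls without sham animal 41. Rpl6, Rpl34 and Rps4x were below 0 without the 14 arrays of lowest spread, where sham animals 43 and 48 alone remain. Processed copies of ribosomal protein genes can share probes, so single values are uncertain. Of 33 genes of respiratory chain complex I, Ndufa9 (0.72 ± 0.21), Ndufb10 (0.65 ± 0.17) and Ndufa12 (0.58 ± 0.17) were higher, with a median of 0.25; without those 14 arrays Ndufa9 and Ndufa12 were below 0, and all 3 calls were lost without sham animal 41. Of 29 growth and regeneration genes, Fgf21, Igfbp1 and Pcna were called (median 0.02), with Pcna at 1.01 ± 0.28 (adjusted p = 0.0355; adjusted p = 0.11 in its least favourable fit). The vasoactive, adenosine and fibrinolysis genes (28, median 0.004) and the nucleolar ribosome biogenesis factors (25, median 0.14) had no called member.

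In the remaining groups 1 or 2 genes each were called higher and none was lower. They were Hpx and Hamp of 22 acute phase genes (median 0.20), with the heme binder gene Hpx at 0.32 ± 0.10, Psmb8 of 28 interferon-stimulated genes (3.57%, close to the share over all genes; 0.69 ± 0.21; median 0.18), Nfil3 of 15 clock genes (median 0.11) and the amino acid transporter gene Slc43a1 of 21 transporters (0.99 ± 0.22; median 0.21). Slc43a1 kept its call in all 18 fits without 1 animal, and Hpx, Psmb8 and Nfil3 did not. With only the IPC+IPO and sham arrays in the fit, Slc43a1 was not called either.

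**Figure D4:**
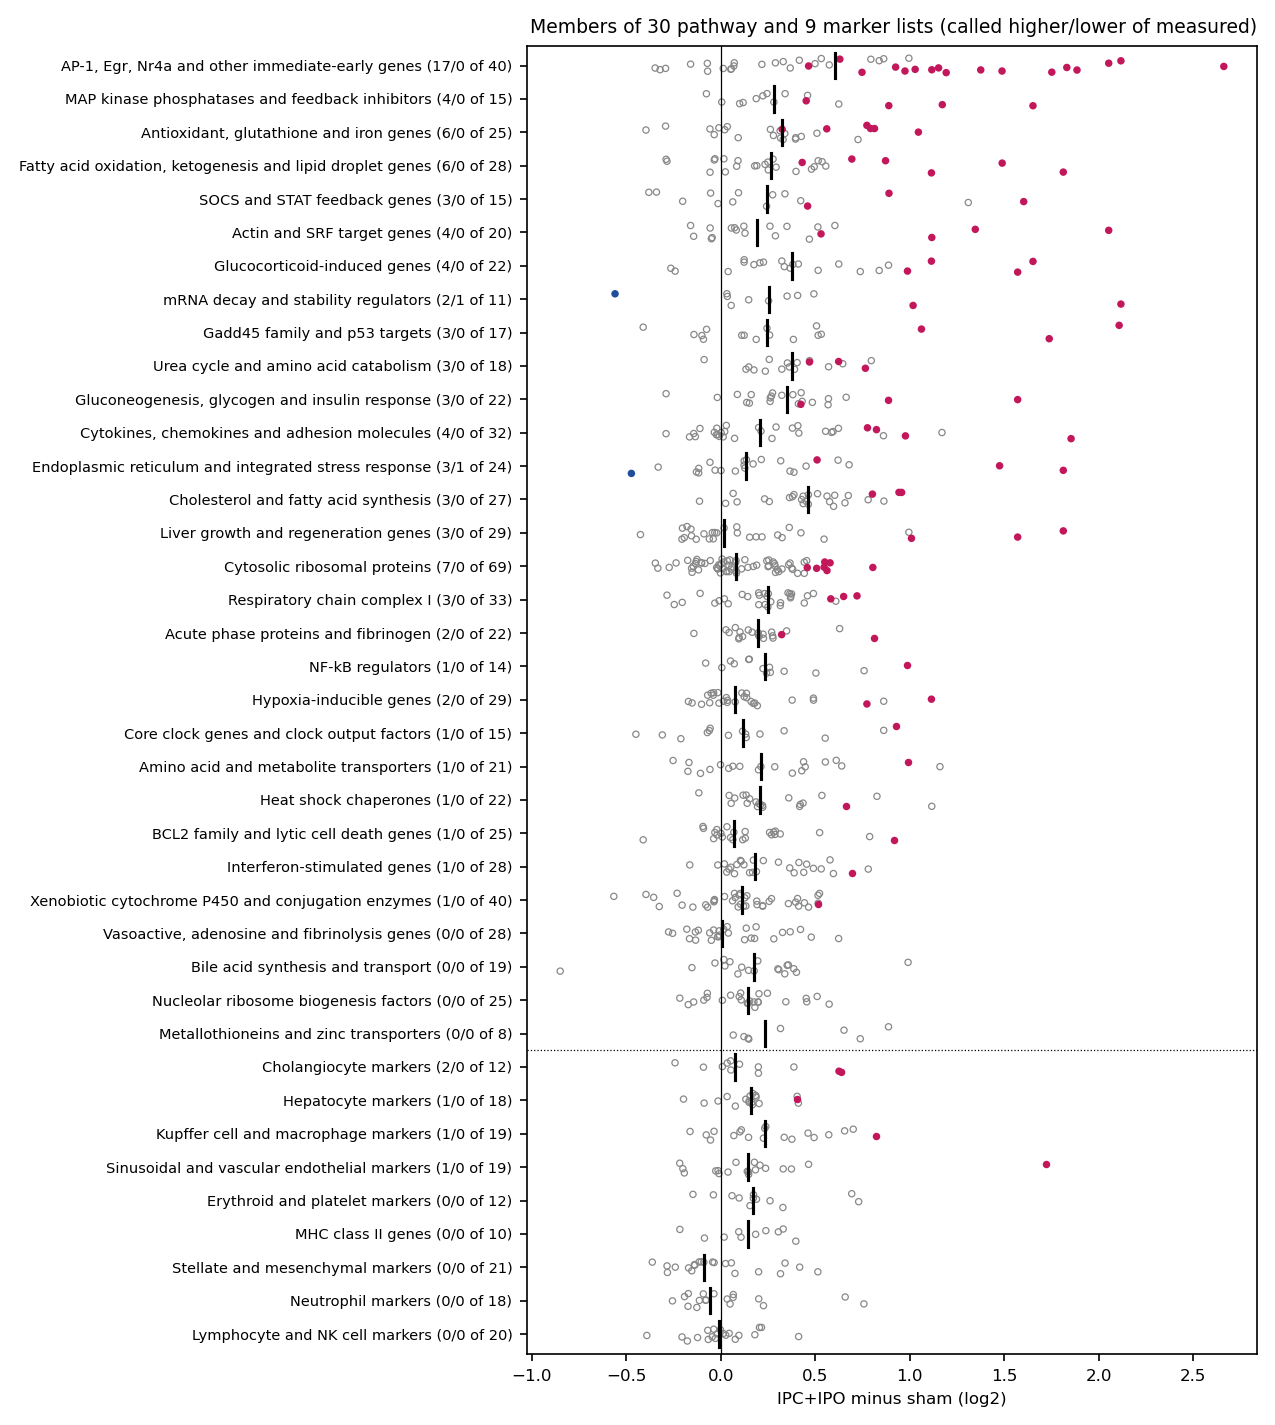
Difference between IPC+IPO and sham (log2, horizontal axis) of each measured member of 30 pathway lists (above the dotted line) and 9 cell type marker lists (below it), 1 point a gene; filled points were called higher (red) or lower (blue), open points were not called, and black bars are list medians. Numbers beside a name give members called higher and lower of those measured; the immediate-early genes have 17 of 40 and reach furthest to the right.

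No called gene fell by 2-fold or more. The 5 called genes lower by 1.5-fold or more were H4c14, Krt83, Foxd3, Cfap141 and Krtap1-5, and the median mean level of the 82 lower genes was 5.57, against 8.38 for the 443 higher ones and 5.87 for all genes. The histone H4 gene H4c14, whose family members are near-identical in sequence, so that probes may be shared, lay between 6.79 and 8.61 (median 6.97) in IPC+IPO and between 6.91 and 8.25 (median 8.12) in sham, and fell by 0.71 ± 0.20 (adjusted p = 0.0397). Its values formed a low and a high set in both groups: IPC+IPO animal 37 was high like 6 sham animals, and sham animals 43 and 48 were low like the other IPC+IPO animals. The hair keratin gene Krt83 fell by 0.69 ± 0.14 (adjusted p = 0.00655), the transcription factor gene Foxd3 by 0.64 ± 0.15 (adjusted p = 0.0205), and Mss51 by 0.57 ± 0.12 (adjusted p = 0.00794). Cfap141 fell by 0.64 ± 0.18 (adjusted p = 0.0397), with sham animals 41 and 48 the highest at 6.81 and 6.63. Krtap1-5, Misp3 and Gng3 fell by 0.60 ± 0.15, 0.58 ± 0.17 and 0.57 ± 0.15. Of these 8 genes, Krt83 and Mss51 were called in all 18 fits without 1 animal, none passed with the covariate, and Misp3 stood at 0.05 without the 14 arrays of lowest spread.

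Among 9 lists of cell type markers, the hepatocyte, Kupffer cell, endothelial and cholangiocyte lists had 1 or 2 members called each, and the other lists none. The tissue label was borne out by the hepatocyte markers, of which Asgr1 was at 11.23 ± 0.34 (SD, n = 10) in IPC+IPO and 10.82 ± 0.30 (SD, n = 8) in sham and was the only one of 18 called (0.40 ± 0.11, adjusted p = 0.0335). The mean level of the 18 markers ran from 11.25 to 12.00 over IPC+IPO animals and from 11.54 to 11.89 over sham animals. Of 19 Kupffer cell and macrophage markers, Vsig4 rose (0.82 ± 0.24, adjusted p = 0.0454; -0.004 without the 14 arrays of lowest spread), and the list's median was 0.23, with the list's mean level between 6.86 and 7.88 in IPC+IPO and between 6.79 and 7.79 in sham. None of 18 neutrophil markers was called (median -0.06; mean level 4.85 to 5.66 against 4.79 to 5.20); S100a9 differed by 0.76 ± 0.33 (adjusted p = 0.158). Lymphocyte and natural killer cell markers (20, median -0.01), MHC class II genes (10, median 0.15), stellate and mesenchymal markers (21, median -0.09) and erythroid and platelet markers (12, median 0.17) had no called member. The 2 cholangiocyte markers called of 12 were Krt8 (0.63 ± 0.16) and Krt18 (0.64 ± 0.17), keratins that hepatocytes make too. Asgr1 and Krt8 lost the call in 12 of the 18 fits without 1 animal, and Vsig4 and Krt18 in 13.

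Of 19 endothelial markers, Apold1 (probe set 10859262) alone was called. It codes for an early response protein of vascular endothelium. Its level lay between 5.72 and 8.16 (median 7.43) in IPC+IPO and between 4.68 and 6.26 (median 5.35) in sham, with animals 34 and 37 in the sham range. The difference was 1.72 ± 0.30 (adjusted p = 0.00281; 1.32 ± 0.28 and adjusted p = 0.0304 with the covariate). The median of the 19 markers was 0.15, and their mean level ran from 6.23 to 7.11 in IPC+IPO and from 6.43 to 6.69 in sham.

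The differences of the other ischemic groups from sham rest on the same 8 sham animals and are therefore given side by side only. In the order IRI, IPC, IPO and IPC+IPO, Atf3 stood at 1.58, 2.92, 2.63 and 2.66 (SE 0.57 each). Zfp36 stood at 0.73, 2.12, 1.81 and 2.12 (SE 0.38 each), Gadd45a at 1.36, 2.37, 1.53 and 2.11, and Dusp1 at 0.97, 1.73, 1.40 and 1.65. Igfbp1 was at 0.82, 1.80, 0.89 and 1.57, Cish at 1.22, 1.95, 0.98 and 1.60, and Tia1 at -0.35, -0.53, -0.39 and -0.56. The median of the 40 immediate-early genes was 0.35, 0.69, 0.50 and 0.60. Against sham, limma called 35 genes in IRI (0.241%), 955 in IPC (6.58%) and 3364 in IPO (23.2%), beside 525 in IPC+IPO. Array spread ran from 1.537 to 1.917 in IRI, from 1.709 to 1.932 in IPC and from 1.749 to 1.964 in IPO. Its part in these counts was not tested, so they are no measure of the size of each response.

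Tested directly, no gene was called between IPC+IPO and another ischemic group. Against IRI no gene had an adjusted p under 0.05 in limma (smallest 0.0883; 3118 genes at an unadjusted p under 0.05), while 9 (0.062%) were called with the covariate and 4484 with array weights. Apold1 was higher than in IRI by 1.21 ± 0.28 and Zfp36 by 1.39 ± 0.36 (adjusted p = 0.0942 each), Nr4a1 by 0.89 ± 0.26 (adjusted p = 0.0951), Fgf21 by 1.02 ± 0.34 (adjusted p = 0.109), Atf3 by 1.08 ± 0.54 (adjusted p = 0.235) and Junb by 0.47 ± 0.30 (adjusted p = 0.342). Against IPC, 235 genes had an unadjusted p under 0.05 and none passed (smallest adjusted p 0.9998), with Atf3 at -0.26 ± 0.54, Gadd45a at -0.27 ± 0.37 and Tia1 at -0.03 ± 0.08. Against IPO, 482 genes did and none passed (smallest adjusted p 0.229), with Igfbp1 at 0.68 ± 0.36, Cish at 0.62 ± 0.37 and Spry4 at 0.39 ± 0.12. These standard errors leave room for differences of 1.5-fold in most of the strongly induced genes, so the counts of 0 do not show that the groups were alike.

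**Figure D5:**
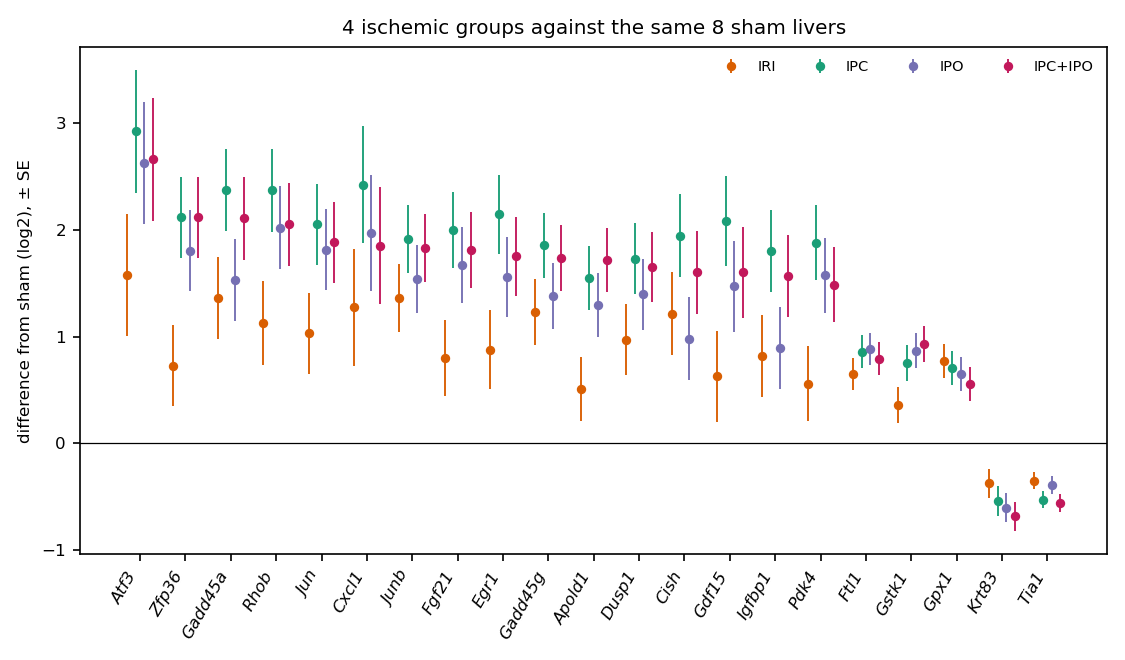
Difference from sham (log2, vertical axis) of 21 genes in the 4 ischemic groups; points are limma estimates and bars their SE, all against the same 8 sham animals (10 animals in each ischemic group). IPC+IPO lies near IPC and IPO and above IRI in most induced genes, while no gene passed the direct test between IPC+IPO and another ischemic group.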

How the data were processed

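The authors deposited log2 expression values per probe set, made with RMA in Affymetrix Expression Console per the submitters' processing notes; versions are not given in the sources used here. RMA equalises probe distributions, yet arrays still differed in spread. Labelling used 150 ng of RNA per the labels, which state no batch. Of 29215 probe sets, 15310 had 1 symbol, 323 several and 13582 none; each of 14506 genes was taken from its probe set of highest mean.

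The test was limma's (version 3.58.1, R 4.3.3, lmFit and eBayes, two-sided), fitted once to all 48 arrays and 5 groups, which leaves 43 residual degrees of freedom, with Benjamini-Hochberg adjustment over all genes and a threshold of 0.05. Tested on simulated data for IPC+IPO against sham over 14506 genes, it called 69% of the genes given a 1.5-fold rise and 94% of those given a 2-fold rise. The simulated noise was independent between genes, whereas the real arrays differed in spread over all genes. These shares are therefore not the power of the comparison in the real data. The rats are separate animals per the labels, and the number of arrays limits precision. Array spread was compared over 43758 exact permutations.

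Genes named are the 15 largest rises and selections from the 15 largest falls and the 4 members of smallest p of each of 39 lists; all other called members of a list, Gstk1, S100a9, Fosl1 and Fosl2 were added after their values were seen. Members and lists were chosen with earlier results of these data known. Figures used matplotlib.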

Additional observations from a re-analysis of the deposited data

Results flagged for a closer look

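Among 184 sets of values (92 named genes, in sham and in IPC+IPO), 18 held 1 animal that stood apart by Dixon's ratio, the gap to the nearest animal over the group's range; chance gives about 1 in 20. Of these, 13 were IPC+IPO animal 37 as the lowest of its group. It stood apart in the transcription factor genes Nfil3 (ratio 0.484) and Atf4 (0.567), in Ftl1 (0.565), in the sterol genes Insig1 (0.572) and Tm7sf2 (0.498), and in the keratin genes Krt8 (0.582) and Krt18 (0.591). The same held for the ribosomal protein genes Rpl6 (0.574), Rpl15 (0.568), Rpl34 (0.75) and Rps29 (0.671), for Ndufb10 (0.656) and for Ninj1 (0.518). Animal 37 was the highest of its group in H4c14 (0.624, at 8.61 with the next animal at 7.47) and in Gng3 (0.5). Its array spread of 1.669 was the second lowest of its group. Sham animal 48 stood highest in Hes1 (0.597), Cxcl1 (0.545) and Angptl4 (0.749, at 8.71 with the next animal at 7.33).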

How the results depend on the processing

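The 525 calls (443 higher, 82 lower) moved with the model: 12 (11 and 1) with only these 18 arrays in the fit, 9007 (5001 and 4006) with array weights, 325 (191 and 134) after renewed quantile normalization and 34 (19 and 15) with array spread as a covariate. All probe sets gave 912, of which 312 were lower, and leaving out the dimmest 1 in 3 genes gave 679 higher. A 1.5-fold minimum left 306, 5 of them lower, and an adjusted p under 0.01 left 30 (26 and 4). Without the 14 arrays of lowest spread, which leaves 8 IPC+IPO and 2 sham arrays (animals 43 and 48), 0 were called (0 and 0). In alternatives added after the data were seen, leaving out the 2 IPC+IPO arrays of lowest spread (37 and 38) gave 4375 (2977 and 1398), and the 2 sham arrays of highest spread (43 and 48) 4136 (2770 and 1366). Leaving out 1 animal gave 49 to 2432 calls, 42 to 1799 higher and 6 to 683 lower. Trended variance, median centring and the probe set of largest variance stayed within 1.5 times. Against IRI the count of 0 became 4484 with array weights, 113 after quantile normalization, 9 with the covariate and 601 without the 14 arrays; against IPC it was 1 after quantile normalization, and against IPO 12 with array weights. Without the 14 arrays, signs turned for Cidec (-0.055), Tm7sf2 (-0.014), Rpl6 (-0.11), Rpl34 (-0.075), Rps4x (-0.11), Ndufa9 (-0.036), Ndufa12 (-0.14), Vsig4 (-0.0043) and Misp3 (0.047). The causes were not tested. No paired analysis was possible because animals 31 to 40 and 41 to 48 carry no common number.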
